A study of Mus musculus with 18 samples.

Results

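The MHC class II genes examined here were H2-Aa, H2-Ab1, H2-Eb1, Cd74, H2-DMa and H2-DMb1, together with Ciita, their transcriptional activator. These 7 genes were named as a set and matched by symbol among the 48709 genes of the deposited table. All 7 were among the 13281 genes with enough counts to be tested. The set was selected on results of these same libraries, whose fold changes and p in the 3 comparisons were known when it was proposed, so the tests below describe where its members fall in the whole table and are no independent support for it.

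The libraries hold polyadenylated RNA from the left ventricle of 12-week-old male C57BL/6J mice of wild-type genotype, in 3 groups of 6 libraries. Control mice carried an osmotic pump with saline and received saline injections. Isoproterenol mice received 30 mg/kg/day of isoproterenol, a β-adrenergic agonist that strains the heart, from the pump. The third group received the same infusion and a daily intraperitoneal injection of 50 mg/kg minocycline, an antibiotic of the tetracycline class that also dampens inflammation. Hearts were taken after 21 days, and a group given minocycline alone was not analysed here. Minocycline was thus seen only on top of isoproterenol. Every library is bulk tissue, so fewer cells of a type and less RNA per cell cannot be told apart. The protocol text speaks of pooled RNA, so whether a library is 1 animal is uncertain and p-values measure the spread between libraries.

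MHC class II molecules display peptides from engulfed material to CD4 T cells, and in the mouse they are made mainly by dendritic cells, B cells and activated macrophages. An alpha and a beta chain pair in the endoplasmic reticulum around the invariant chain, which blocks the groove until proteases of the endosome remove it and H2-DM loads a peptide. The genes share a promoter module, the X and Y boxes, bound by RFX and NF-Y proteins, to which the co-activator CIITA is recruited. Interferon gamma is the classic inducer of Ciita outside dedicated antigen-presenting cells.

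The promoter module can be read in 3 of the 4 members that have an entry among the RefSeq promoters of GRCm38 (250 bases before to 50 after each start site). H2-Ab1, Cd74 and Ciita have no entry. 2 members and a weakly expressed neighbour are shown here, because the members are among the best expressed genes of the set and H2-Eb2 holds the same letters at almost no RNA. Each is written 5′ to 3′ on the strand of its gene, and capitals mark GNAAC, the core of the X box, and TGATTGG, the core of the Y box.
H2-Aa: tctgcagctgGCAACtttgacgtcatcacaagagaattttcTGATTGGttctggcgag
H2-Eb1: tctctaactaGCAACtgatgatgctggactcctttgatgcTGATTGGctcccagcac
H2-Eb2: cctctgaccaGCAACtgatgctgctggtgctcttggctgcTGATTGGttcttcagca

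On GRCm38 the H2-Aa segment is chr17:34287857-34287914 on the minus strand. The segments of H2-Eb1 and H2-Eb2 are chr17:34305766-34305822 and chr17:34325533-34325589 on the plus strand. GNAAC and TGATTGG lay 26 bases apart in H2-Aa and 25 bases apart in H2-Eb1 and in H2-Eb2. H2-DMb1 held the same pair 26 bases apart, and neither window of H2-DMa held TGATTGG. The H2-DMa windows lie upstream of the gene start in the deposited table, so they may not be the promoter in use. Among 4 further class II genes with an entry, H2-Oa, H2-Ob and H2-Eb2 held the pair and H2-DMb2 did not. Both strands were searched, and the motifs and their spacing of 10 to 40 bases were chosen after the sequences were viewed. In the 250 bases before the start, GNAAC alone was present in 79.6% of 32851 promoters, TGATTGG alone in 7.23%, and the ordered pair in 0.715%. A match describes letters in the window and does not show that a factor binds there.

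Libraries held 14203041 to 22688664 counts, of which mitochondrially encoded genes took 40.1 to 47.7%. Libraries of a group differed by more than counting error in every pair (chi-square per degree of freedom 5.46 to 34.7), so no library was a copy of another. The 8 cardiomyocyte markers, among them Myh6 and Tnnt2, summed to 52089 to 70396 CPM (CPM are counts relative to the library size, which was scaled by the TMM method) in every library. The atrial gene Myl7 exceeded 80 CPM in 4 libraries, namely Control 5 and 6, Isoproterenol 5, and isoproterenol and minocycline 2.

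The level of each gene per length is given first, as the TPM (transcript abundance corrected for gene length) of the authors' deposited table. Cd74, the invariant chain, was the most abundant member, with a mean of 76.3 TPM over the 18 libraries and a range of 45.8 to 121. H2-Eb1, H2-Aa and H2-Ab1 followed with means of 27.8, 24.1 and 20.4 TPM, and their ranges over libraries overlapped one another but not that of Cd74. H2-DMb1 averaged 2.94 TPM and H2-DMa 2.43, again with overlapping ranges. Ciita averaged 0.228 TPM and was the lowest of the 7. The set thus fell into an abundant group of 4, a low pair and a regulator near the limit of detection. Other class II genes stood lower still, with H2-Ob at 0.209, H2-DMb2 at 0.183, H2-Oa at 0.0916 and H2-Eb2 at 0.0104 TPM. H2-Ea-ps, listed in the table as the pseudogene of the I-E alpha chain, had 1 count in all 18 libraries together.

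H2-Aa encodes the alpha chain of I-A, the class II molecule of C57BL/6 mice. It had 25.6, 30.1 and 33.3 CPM in the lowest, median and highest Control library, 23.8, 38.2 and 45.9 CPM in the Isoproterenol libraries, and 18.6, 20.3 and 25.6 CPM with minocycline added. Isoproterenol libraries spanned both sides of the controls, while 4 of the 6 libraries with minocycline lay below every Isoproterenol library and 5 of 6 below every control. The edgeR log2 fold change of isoproterenol and minocycline against Isoproterenol was -0.74 (SE 0.13, adjusted p = 0.0309), from 36.3 ± 8.02 to 21.7 ± 3.04 CPM (SD, n = 6 each). Against Control, the group with minocycline fell by 0.45 on the log2 scale (SE 0.13, edgeR adjusted p = 0.0190). For Isoproterenol against Control the log2 fold change was 0.29 (SE 0.13, edgeR adjusted p = 0.137), which did not pass the threshold of 0.05.

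H2-Ab1 encodes the beta chain of I-A. Its lowest, median and highest libraries were at 18.3, 20.8 and 23.3 CPM in Control, 18.9, 29.9 and 32.8 CPM in Isoproterenol and 13.6, 16.5 and 19.5 CPM with minocycline added. Isoproterenol 1 and 2, at 18.9 and 20.7 CPM, sat among the controls, and Isoproterenol 3 to 6, at 29.8 to 32.8 CPM, sat above all of them. Of the libraries with minocycline, 5 of 6 lay below every Isoproterenol library and 4 of 6 below every control. H2-Ab1 rose with isoproterenol from 20.9 ± 1.62 to 27.1 ± 5.83 CPM (SD, n = 6 each), a log2 fold change of 0.38 (SE 0.12, edgeR adjusted p = 0.0429). With minocycline added to isoproterenol it fell to 16.5 ± 2.27 CPM, a log2 fold change of -0.71 (SE 0.12, edgeR adjusted p = 0.0302). Against Control the group with minocycline stood at a log2 fold change of -0.33 (SE 0.12, edgeR adjusted p = 0.0612), short of the threshold.

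H2-Eb1 encodes the beta chain of I-E, whose alpha chain gene is not functional in this strain. It had 18.8, 20.7 and 21.9 CPM in the lowest, median and highest Control library, 18.9, 27.6 and 32.5 CPM in Isoproterenol, and 12.8, 15.1 and 22.5 CPM with minocycline added. The same 4 Isoproterenol libraries were above every control, and 5 of 6 libraries with minocycline were below every library of both other groups. The exception, isoproterenol and minocycline 2 at 22.5 CPM, was above every control. None of its 3 differences passed the threshold. The log2 fold change was 0.36 for isoproterenol (SE 0.13, edgeR adjusted p = 0.0781), -0.69 for added minocycline (SE 0.13, edgeR adjusted p = 0.0671) and -0.33 for both drugs against Control (SE 0.14, edgeR adjusted p = 0.0926).

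Cd74 encodes the invariant chain and lies on chromosome 18, apart from the other class II genes. Its lowest, median and highest libraries were at 61.0, 70.8 and 74.4 CPM in Control, 62.1, 92.3 and 95.8 CPM in Isoproterenol and 45.8, 56.8 and 65.3 CPM with minocycline added. Isoproterenol 1 and 2 were again within the controls and Isoproterenol 3 to 6 above them, and 3 of the 6 libraries with minocycline were below every library of the other two groups. The log2 fold change was 0.27 for isoproterenol (SE 0.12, edgeR adjusted p = 0.125) and -0.58 for added minocycline (SE 0.12, edgeR adjusted p = 0.0721). Against Control both drugs together gave -0.30 (SE 0.12, edgeR adjusted p = 0.0708). None of the 3 passed the threshold.

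**Figure D1:**
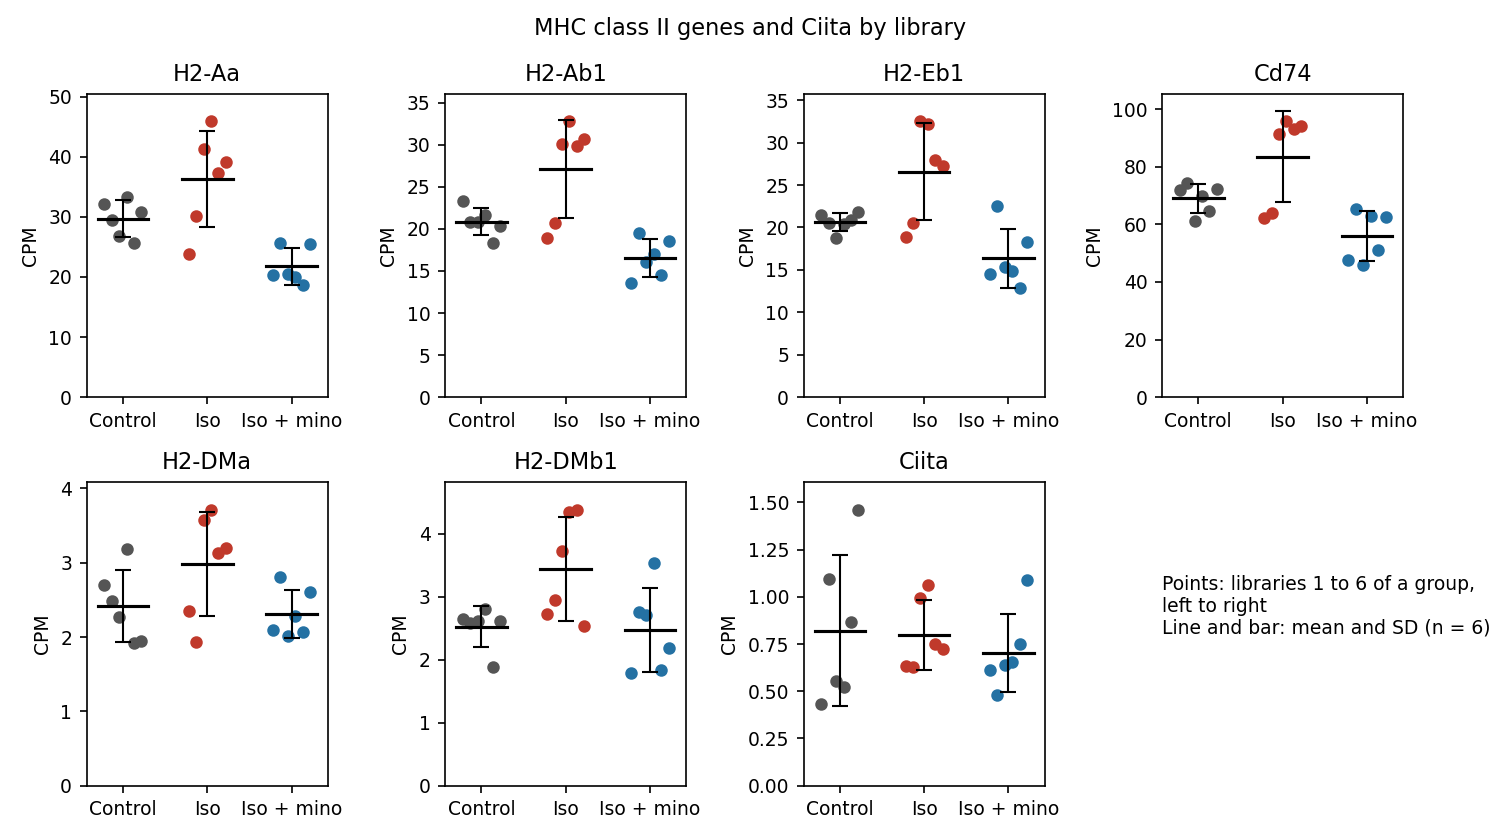
CPM (vertical axes, from 0) of the 7 genes in the 18 libraries, by group (Control, isoproterenol, isoproterenol and minocycline); points are libraries 1 to 6 from left to right, lines and bars the mean and SD. In H2-Aa, H2-Ab1, H2-Eb1 and Cd74 the first 2 isoproterenol points are the lowest of their group, and for H2-Ab1 these lie at 18.9 and 20.7 CPM against 29.8 to 32.8 CPM in the other 4.

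H2-DMa and H2-DMb1 encode the chains of H2-DM, which exchanges the invariant chain remnant for peptide. H2-DMa had 1.92, 2.38 and 3.18 CPM in the lowest, median and highest Control library, 1.93, 3.16 and 3.72 CPM in Isoproterenol and 2.02, 2.19 and 2.81 CPM with minocycline added, and all 3 groups overlapped. H2-DMb1 had 1.88, 2.62 and 2.80 CPM in Control, 2.53, 3.34 and 4.38 CPM in Isoproterenol and 1.79, 2.44 and 3.53 CPM with minocycline added. For H2-DMb1, 4 of 6 Isoproterenol libraries were above every control. No difference of either gene passed the threshold. With isoproterenol the log2 fold changes were 0.30 for H2-DMa (SE 0.17, edgeR adjusted p = 0.263) and 0.45 for H2-DMb1 (SE 0.18, edgeR adjusted p = 0.101). With minocycline added they were -0.36 (SE 0.17, edgeR adjusted p = 0.642) and -0.48 (SE 0.18, edgeR adjusted p = 0.524), and for both drugs against Control -0.06 and -0.03. H2-DMb1 lies beside the near-identical H2-DMb2, which had 71 counts in all against 957, so reads assigned to either copy are uncertain.

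Ciita gave 7 to 24 counts in each library, 264 in all. Its lowest, median and highest libraries were at 0.431, 0.710 and 1.46 CPM in Control, 0.628, 0.737 and 1.06 CPM in Isoproterenol and 0.482, 0.646 and 1.09 CPM with minocycline added. The 3 groups overlapped, and the range of the controls enclosed both others. The log2 fold changes were -0.03 for isoproterenol (95% interval -0.59 to 0.54), -0.19 for added minocycline (-0.76 to 0.38) and -0.21 for both drugs against Control (-0.78 to 0.35). The edgeR adjusted p were 0.968, 0.891 and 0.642. These intervals also hold changes as large as that of H2-Ab1 with isoproterenol or H2-Aa with minocycline, so a difference of that size was not detectable at this depth. Counting alone would give Ciita a coefficient of variation of 25.4% among the controls, where 48.7% was found. Dexi runs antisense across part of Ciita and holds 4677 counts, and how strand was treated is not given in the sources used here, so reads of both may be mixed.

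**Figure D2:**
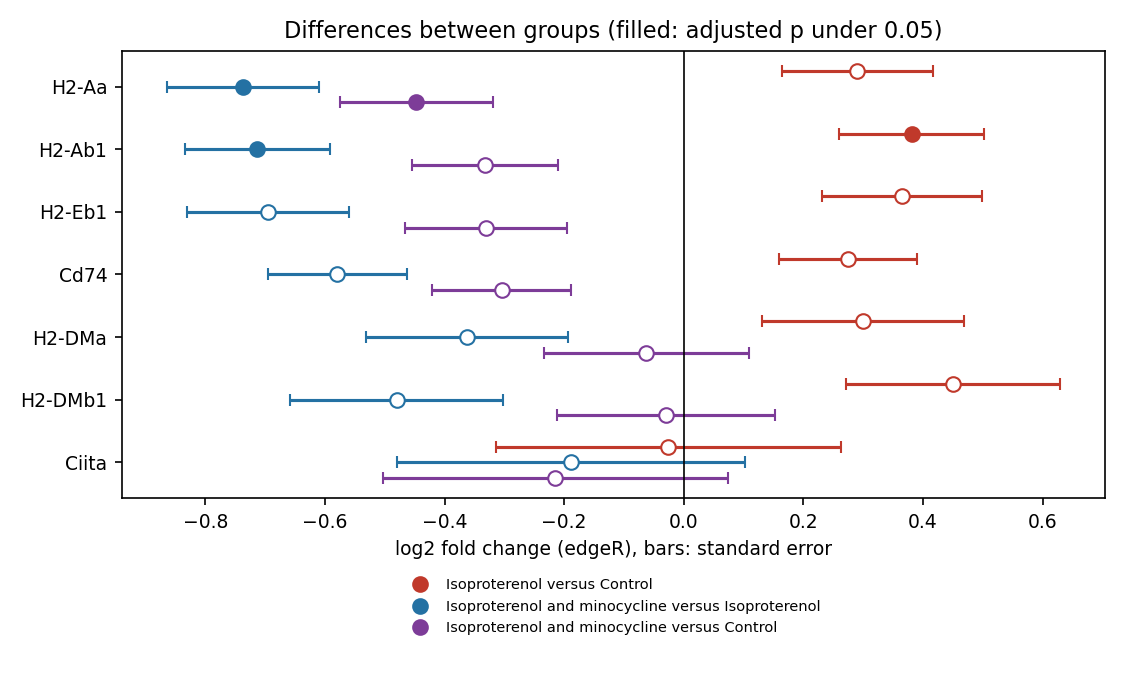
Log2 fold change (horizontal axis) with its standard error for each gene (vertical axis) in the 3 comparisons, by colour; filled points passed an adjusted p of 0.05. The 4 filled points are H2-Ab1 at 0.38 with isoproterenol, H2-Aa at -0.74 and H2-Ab1 at -0.71 with minocycline added, and H2-Aa at -0.45 for both drugs against control.

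Set against the whole table, 1 of the 7 genes was called higher with isoproterenol, where 6.94% of all tested genes were, and 0 of 7 were called lower, where 5.62% were. With minocycline added to isoproterenol, 2 of 7 were called lower, against 0.0452% of all tested genes, and 0 of 7 higher, against 0.00753%. That comparison called 7 genes in all, and H2-Ab1 and H2-Aa stood at ranks 4 and 5 by p, with H2-Eb1 and Cd74 at ranks 9 and 13. For both drugs against Control, 1 of 7 was called lower, against 9.05%, and 0 of 7 higher, against 10.2%. The median log2 fold changes of the 7 genes were 0.30, -0.58 and -0.30 in the same order, and those of all tested genes were 0.00106, -0.00259 and 0.00347. Every pair of comparisons shares a group, so a high Isoproterenol group enters the first 2 with opposite sign. Nothing is read from these shares, since the set was proposed from these comparisons.

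Which libraries entered decided the calls. Without Isoproterenol 1, 4 members were called in both comparisons that use this group, and without Isoproterenol 2, 4 were called lower with minocycline added and 2 higher with isoproterenol. Leaving out any of Isoproterenol 3, 4, 5 or 6 ended all calls of members in both comparisons. Over the fits without 1 library, all genes called numbered 1079 to 1877 with isoproterenol and 1 to 13 with minocycline added. The call of H2-Ab1 with isoproterenol was also lost without any of Control 2 to 6 (edgeR adjusted p = 0.0622 to 0.0859). The 2 calls with minocycline added were also lost without isoproterenol and minocycline 1, 3, 4 or 5 (edgeR adjusted p = 0.0582 to 0.101). The sizes changed little, with a log2 fold change for added minocycline between -0.83 and -0.65 for H2-Aa and between -0.79 and -0.65 for H2-Ab1. In a fit of only the 12 libraries compared, H2-Aa and H2-Ab1 were not called with minocycline added (edgeR adjusted p = 0.250 for both), and with no filter on low counts H2-Ab1 was not called with isoproterenol (edgeR adjusted p = 0.0554). H2-Aa for both drugs against Control was called without any single library (edgeR adjusted p = 0.00510 to 0.0488). Without the 4 libraries above 80 CPM of Myl7, no member was called with isoproterenol or with minocycline added, at log2 fold changes of 0.30 for H2-Ab1 in the first and -0.78 and -0.73 for H2-Aa and H2-Ab1 in the second.

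The members also varied together among libraries of the same treatment. After each group's mean log2-CPM was subtracted, Pearson's r over the 18 libraries was computed for all 21 pairs of members. Among H2-Aa, H2-Ab1, H2-Eb1 and Cd74, r lay between 0.818 and 0.913 and Spearman's rho between 0.783 and 0.903, and all 6 pairs passed a 2-sided permutation test within groups (adjusted p over the 21 pairs = 0.000315 to 0.00393). H2-DMa followed these 4 genes with r from 0.722 to 0.841, and these 4 pairs passed as well. H2-DMb1 had r from 0.450 to 0.582 with the 5 members other than Ciita and none of the pairs passed. Ciita had r from -0.0521 to 0.316 with the other 6 and none passed, on counts of 7 to 24 a library. Hence 10 of 21 pairs passed, the same number as by rho. These 10 pairs had r of 0.722 or more, where 0.722 was their own lowest r. Of all pairs of the 13281 tested genes, 0.944% reached that value. Of the pairs among the 12243 genes with a mean of at least 1 CPM, 1.07% did. Since the cutoff was taken from the members, these shares are a description and no test. The mean deviation of the 4 abundant genes had r of 0.69 with that of 9 pan-leukocyte markers, 0.58 with 5 dendritic cell markers, 0.54 with 12 MHC class I genes and 0.46 with 20 macrophage markers, given as a description over the 18 libraries. For 18 transcriptional regulators of class II r was -0.47, for 11 antigen-processing genes 0.38 and for 5 costimulatory genes 0.33. For 21 genes of the interferon gamma list r was 0.20. It was 0.28 for 4 B cell markers, 0.07 for 2 T and NK cell markers and -0.09 for 8 endothelial cell markers. For 8 cardiomyocyte markers r was -0.26, and for 3 atrial markers 0.35. The part of any cell type in the covariation was not tested.

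Isoproterenol 1 and 2 carried part of this covariation. Within the Isoproterenol group the 6 pairs of the 4 abundant genes had r from 0.926 to 0.993 over 6 libraries, against 0.665 to 0.939 with minocycline added and 0.0363 to 0.767 in Control. Without Isoproterenol 1 and 2 together, the 6 pairs had r from 0.618 to 0.803 and 4 of the 21 pairs passed. Without the 2 libraries farthest from the median of H2-Aa, r of these pairs was 0.753 to 0.850 and 10 pairs passed.

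**Figure D3:**
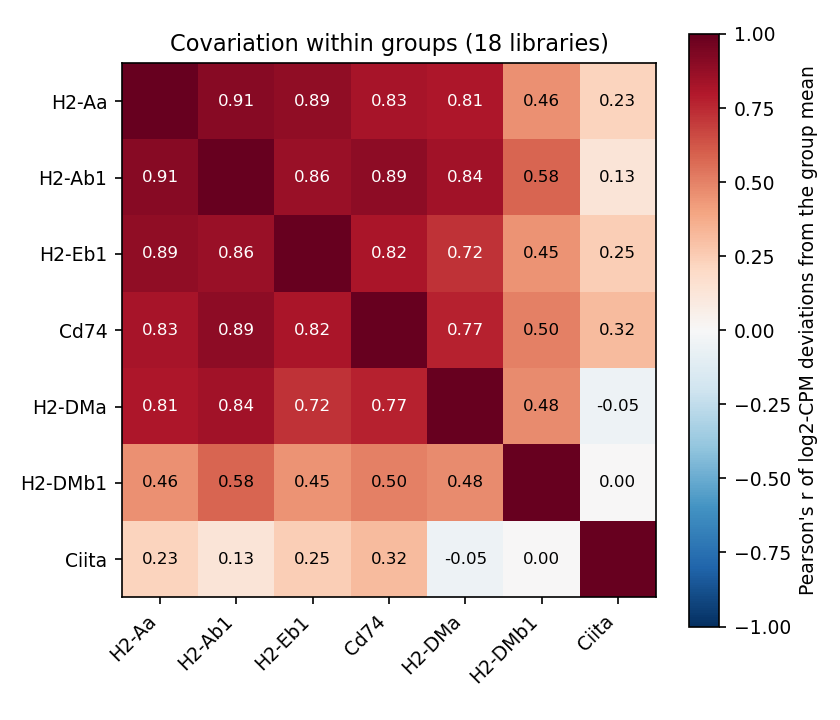
Pearson's r (colour and printed value) between members, of log2-CPM deviations from the group mean over 18 libraries; rows and columns are the 7 genes. The block of H2-Aa, H2-Ab1, H2-Eb1, Cd74 and H2-DMa is at 0.722 or above, and the row of Ciita does not exceed 0.316.

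Outside the set, the genes whose deviations were most like the mean of the 4 abundant genes included H13, Cebpd, Tyrobp, Glipr1, Thbs1, Cxx1a, Sla, Tspan6 and Med28, with r from 0.711 to 0.838 over 18 libraries. H13, a signal peptide peptidase, came first with r = 0.838 and rho = 0.858, and Tyrobp, an adaptor of myeloid receptors, had r = 0.791 and rho = 0.810. They are the top of a ranking of the tested genes of at least 1 CPM, and no test was made of it. With isoproterenol Cebpd, Tyrobp and Glipr1 rose, at log2 fold changes of 0.99, 0.47 and 1.24 (edgeR adjusted p = 0.00752, 0.0391 and 0.0241), and H13 had 0.11 and was not called. With minocycline added none of the genes named here was called, and these 4 had log2 fold changes between -0.02 and 0.03.

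Of the 7 genes, 5 lie in the class II region of chromosome 17, within 252 kb from H2-Oa to H2-Ea-ps (positions of the deposited table). H2-DMa starts 42.8 kb and H2-DMb1 60.7 kb from the start of H2-Oa, and H2-Ab1, H2-Aa and H2-Eb1 lie at 171, 190 and 214 kb. The region holds 20 genes of the table, of which 11 were tested. The other 6 tested genes were Brd2, a chromatin reader, the immunoproteasome subunits Psmb8 and Psmb9, the peptide transporters Tap1 and Tap2, and H2-Ob, a chain of the H2-DM inhibitor H2-O. None of these 6 was called in any of the 3 comparisons. With minocycline added their log2 fold changes ran from -0.79 for H2-Ob (SE 0.33, 143 counts in all) to 0.09 for Brd2 (SE 0.06), with a median of -0.10. Tap1, between H2-DMb1 and H2-Ab1, had -0.25 (SE 0.15) and Tap2 0.05 (SE 0.09), against -0.74 to -0.36 for the 5 members of the region.

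**Figure D4:**
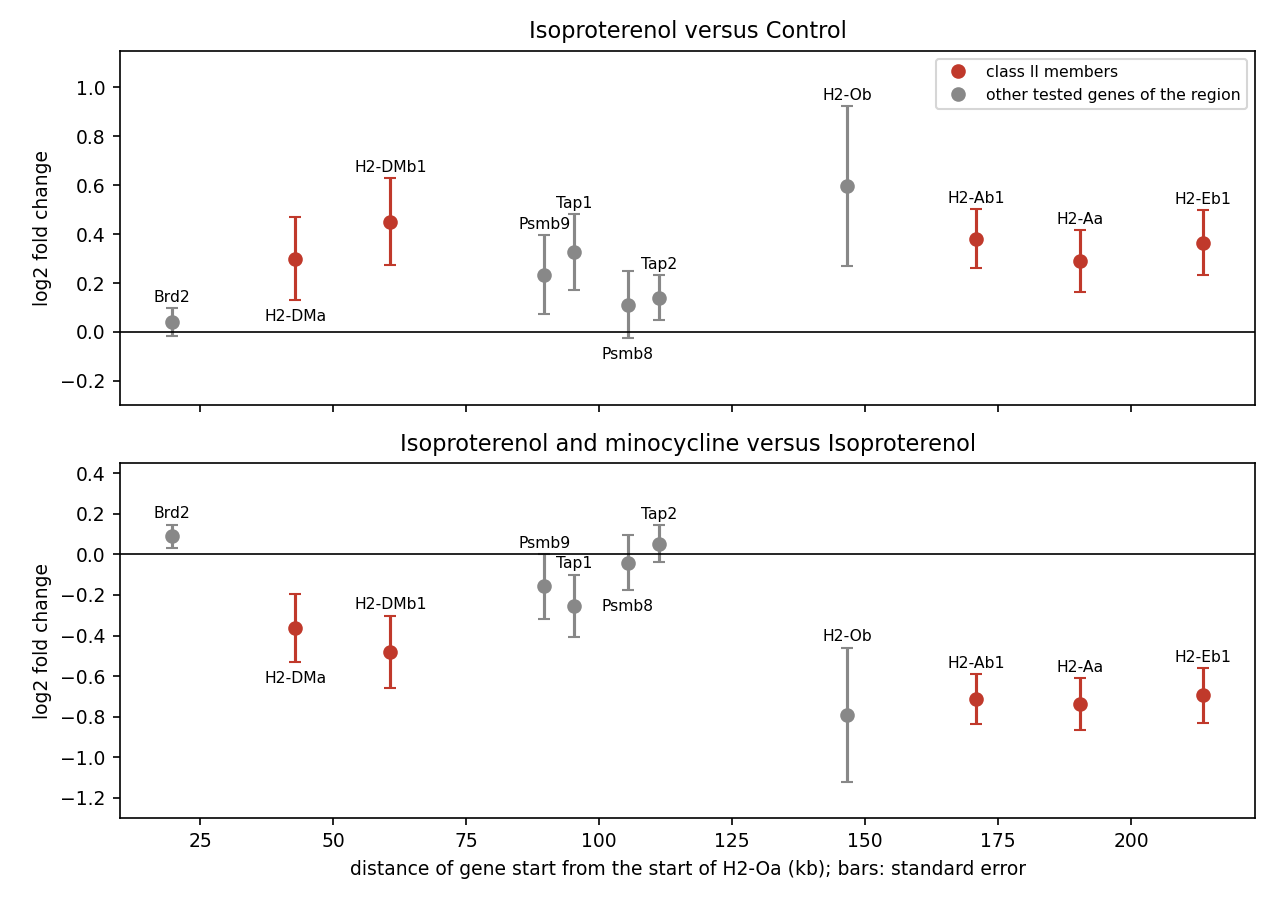
Log2 fold change with its standard error (vertical axes) against the distance of the gene start from H2-Oa in kb, for the 11 tested genes of the region; the upper panel is isoproterenol against control and the lower panel added minocycline against isoproterenol. In the lower panel the 5 members (red) lie between -0.74 and -0.36. Between them in position are Psmb9, Tap1, Psmb8 and Tap2 at -0.25 to 0.05, and H2-Ob at -0.79 (SE 0.33).

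The other genes of the pathway were read from lists, starting with those that process and load antigen. Of 18 symbols written for accessory and antigen-processing genes, 11 were tested. With isoproterenol 6 of the 11 rose and 0 fell. The smallest p were those of Ctsh and Ctss, proteases of the endosome of which cathepsin S trims the invariant chain, followed by Lgmn and Ctsd, and Ctsb and Ifi30 were the others. Ctss went from 10.2 ± 1.08 to 16.9 ± 1.81 CPM (SD, n = 6 each), a log2 fold change of 0.73 (SE 0.12, edgeR adjusted p = 0.000377), with a list median of 0.35. With minocycline added, 0 of the 11 were called in either direction and the list median was -0.05. In the group given both drugs, Ctss, Lgmn and Ctsh rose against Control and none fell. No test compared these genes with the members.

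The transcription factors known to act on class II promoters were tested in full, 18 of 18. With isoproterenol Spi1, the myeloid factor PU.1, rose by a log2 fold change of 0.65 (SE 0.18, edgeR adjusted p = 0.0194), and the other 17 were not called. With minocycline added 0 of 18 were called, and for both drugs against Control Spi1 and Nfyb rose. The RFX subunits that bind the X box had log2 fold changes with minocycline added of -0.17 for Rfx5, 0.16 for Rfxap and 0.02 for Rfxank, none of them called. The list median was -0.02, -0.03 and -0.04 in the 3 comparisons.

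Of 25 genes written for the interferon gamma pathway and its targets, 21 were tested. With isoproterenol only the receptor chain Ifngr2 was called, and it fell by 0.48 on the log2 scale (SE 0.11, edgeR adjusted p = 0.00657). With minocycline added 0 of 21 were called, with a list median of -0.18. Against Control, Ifngr2, Iigp1 and Cxcl9 fell with both drugs and none rose. Cxcl9, a chemokine induced by interferon gamma, stood at 3.26 ± 0.730 CPM in Control, 2.78 ± 0.689 CPM in Isoproterenol and 1.47 ± 0.296 CPM with minocycline added (SD, n = 6), a log2 fold change against Control of -1.14 (SE 0.19, edgeR adjusted p = 0.000283). With minocycline added, all 21 log2 fold changes of the list were below 0, as were 50.7% of those of all tested genes. The lowest were -0.91 for Cxcl9 (SE 0.19, edgeR adjusted p = 0.0878), -0.57 for Iigp1 and -0.40 for Igtp, and the transcription factor Irf1 had -0.10.

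Among costimulatory genes, which give T cells the second signal, 5 of 6 were tested. Cd80 rose with isoproterenol (log2 fold change 1.28, SE 0.34, edgeR adjusted p = 0.0177) and Cd274, the inhibitory ligand PD-L1, fell by 0.56 (SE 0.17, edgeR adjusted p = 0.0316). With minocycline added none of the 5 was called, and for both drugs against Control Cd80 and Icosl rose. Of 12 MHC class I genes, Tapbp alone was called, higher with isoproterenol at a log2 fold change of 0.21 (SE 0.05, edgeR adjusted p = 0.0160). The class I list median was 0.17 with isoproterenol and -0.10 with minocycline added.

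Markers of the cells that carry class II were read beside the members. Of 20 macrophage markers, 10 rose with isoproterenol and 0 fell (list median 0.48), 0 were called with minocycline added (median 0.03), and 12 rose for both drugs against Control (median 0.51). With minocycline added, 8 of the 20 log2 fold changes were below 0 and 12 above. The lowest were -0.46 for Ccr2, -0.45 for Cx3cr1 and -0.44 for Aif1. The highest were 0.56 for Lyve1, 0.23 for Mrc1 and 0.21 for Cd163. The summed level of the 20 markers was 272 to 349 CPM in Control, 376 to 513 CPM in Isoproterenol and 367 to 584 CPM with minocycline added. Both treated groups thus lay above every control and overlapped each other. Lyz2 was the largest part of the sum, with a mean of 132 CPM over the 18 libraries. H2-Ab1 counts per count of the macrophage receptor gene Csf1r were 0.570 to 0.917 in Control and 0.576 to 1.09 in Isoproterenol. With minocycline added they were 0.410 to 0.545, below every library of both other groups. H2-Aa and H2-Eb1 per count of Csf1r were also below both. Cd74 was not, at 1.52 to 1.81 with minocycline added against 1.78 to 3.17 in Isoproterenol. How many other genes would separate in this way was not counted. Per count of Adgre1, another macrophage gene, H2-Ab1 was at 2.93 to 4.34 in Control, 2.26 to 4.07 in Isoproterenol and 1.63 to 2.19 with minocycline added. By that measure the Isoproterenol mean was below that of Control (3.14 ± 0.721 against 3.73 ± 0.491, SD, n = 6 each), and for H2-Aa and H2-Eb1 the libraries with minocycline overlapped those of Isoproterenol. These ratios are given with no test. Isoproterenol 1 and 2, low in the 4 abundant members, had macrophage sums of 376 and 442 CPM beside 382 to 513 CPM in Isoproterenol 3 to 6. Their sums over 9 pan-leukocyte markers, 71.1 and 75.7 CPM, were the lowest of the group, where the other 4 libraries had 79.6 to 97.2 CPM. Their dendritic cell sums, of which Zbtb46 and Naaa were the largest parts, were 28.1 and 29.6 CPM beside 28.3 to 34.8 CPM. Of the 9 pan-leukocyte markers, 8 rose with isoproterenol and 0 fell (list median 0.70), 0 were called with minocycline added (median 0.00241), and 6 rose for both drugs against Control (median 0.49).

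A fit chosen after the data were seen took the mean log2-CPM of the 20 macrophage markers as a covariate. In it, H2-Aa and H2-Ab1 had log2 fold changes of -0.74 and -0.71 with minocycline added (edgeR adjusted p = 0.0225 and 0.0123). H2-Eb1 and Cd74 passed the threshold too. The mean of the markers was 3.28 ± 0.152 in Isoproterenol and 3.28 ± 0.211 with minocycline added (SD, n = 6 each), so the adjustment could barely move these fold changes. In the same fit H2-Ab1 had 0.15 with isoproterenol (edgeR adjusted p = 0.722) and H2-Aa 0.10, and no member was called. For both drugs against Control, H2-Aa had -0.63 and was no longer called (edgeR adjusted p = 0.0914), while H2-Eb1 at -0.67 and Cd74 at -0.60 were called lower (edgeR adjusted p = 0.0491 and 0.0411). The covariate itself differed between Control and the treated groups, so in these comparisons its part and that of the treatment cannot be told apart.

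**Figure D5:**
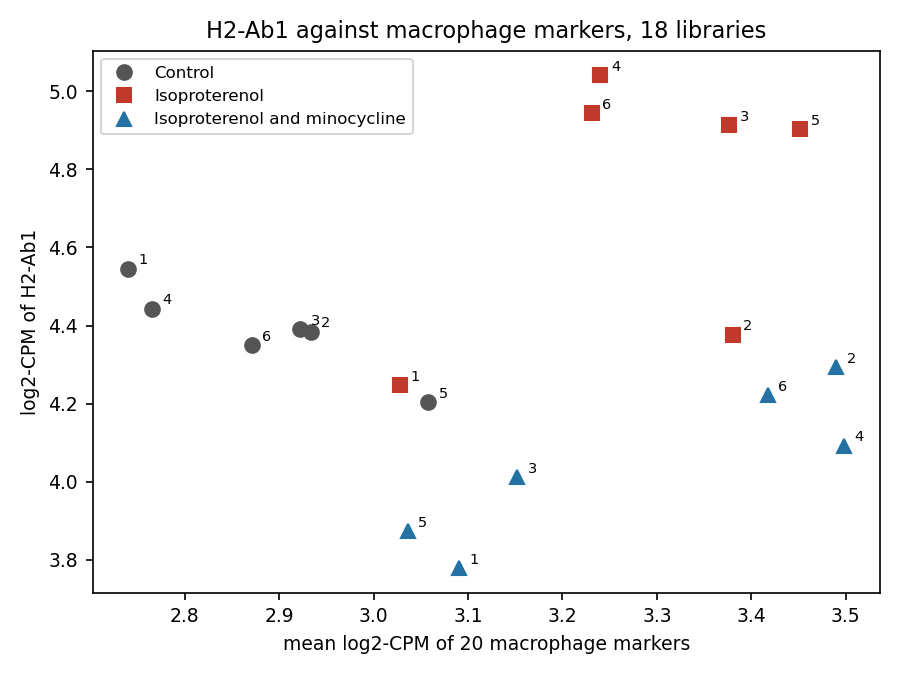
Log2-CPM of H2-Ab1 (vertical axis) against the mean log2-CPM of 20 macrophage markers (horizontal axis) in each of the 18 libraries, numbered within their group. Isoproterenol 3 to 6 lie at the top, at 4.90 to 5.04, and Isoproterenol 1 and 2 lie at 4.25 and 4.38. The 6 libraries with minocycline lie at 3.78 to 4.29 over a similar range of the macrophage mean, so the 2 groups overlap.

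The other marker lists had few tested genes. Of 12 dendritic cell markers 5 were tested, and Itgax, Naaa and Wdfy4 rose with isoproterenol, while none was called with minocycline added. In the sum of the 12 markers, Zbtb46 and Naaa were the largest parts, with means of 12.3 and 9.68 CPM over the 18 libraries. That sum was 24.7 to 28.0 CPM in Control, 28.1 to 34.8 CPM in Isoproterenol and 25.6 to 34.2 CPM with minocycline added. Zbtb46, a factor of classical dendritic cells, was at 12.4 ± 1.17, 12.2 ± 1.54 and 12.4 ± 3.16 CPM in the same order (SD, n = 6 each) and was not called in any comparison. Xcr1, Clec9a and Flt3, also markers of classical dendritic cells, had 27, 49 and 85 counts over the 18 libraries, against 4237 for Zbtb46. Which cells the RNA of Zbtb46 came from was not tested. Neither its level nor the sum of the 12 markers is therefore read as an amount of dendritic cells. Of 12 B cell markers 4 were tested and none was called with isoproterenol or with minocycline added. Ighm and Ighd fell with both drugs against Control, Ighm by 0.93 on the log2 scale (SE 0.17, edgeR adjusted p = 0.000656). The summed B cell level was 7.66 to 11.4 CPM in Control, 7.76 to 9.18 CPM in Isoproterenol and 3.32 to 8.62 CPM with minocycline added, and 5 of the 6 libraries with minocycline were below every Isoproterenol library. With minocycline added, the log2 fold changes were -1.52 for Ighd (SE 0.43, 150 counts in all) and -0.98 for Igkc (SE 0.42, 243 counts in all). Ighm had -0.45 (SE 0.18) and Cd37 0.04 (SE 0.18). The median of these 4 genes was -0.72. Ms4a1, which defines B cells, had 30 counts over the 18 libraries. Of 12 T and NK cell markers 2 were tested and none was called, and Cd3e had 11 counts in all. The part of dendritic, B or T cells in the levels of the members was not tested.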

How the data were processed

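Polyadenylated RNA of 18 left ventricle libraries was sequenced, 6 in each of 3 groups taken from the treatment label. Per the labels' protocols, reads were trimmed and analysed in CLC Genomics Workbench 21.0.3, and edgeR appears in the submitters' processing notes with no stated use. Genome build, gene annotation and strand setting were not given in the sources used. Raw counts per gene, as deposited, were used for all tests, and the TPM deposited by the authors only to compare levels between genes. Columns were matched to libraries by the number in the description label, and 0 per-sample columns matched no library. All 7 member identifiers are in GENCODE M21.

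Genes were kept with filterByExpr, scaled by TMM and tested in 1 fit of the 18 libraries with edgeR 4.0.16 in R 4.3.3 (glmQLFit, robust, and glmQLFTest). Adjusted p are Benjamini-Hochberg over the 13281 genes tested, 2-sided, with a threshold of 0.05. Covariation used log2-CPM with a prior count of 2 and 100000 permutations within groups. Scripts were tested on simulated data. Alternatives were other scalings and filters, the 12 libraries compared, DESeq2 1.42.0, limma-voom (limma 3.58.1) and each library left out. After the data were seen, fits without 4 libraries of high Myl7, with a macrophage covariate, with DESeq2 without independent filtering and without Isoproterenol 1 and 2 were added. The members and lists were chosen with earlier results of these data known. All members are named, and from each list the defining genes, up to 4 called genes of smallest p and some others. The 10 genes of most similar pattern have a mean of at least 1 CPM and no clone-derived or predicted symbol. A few results on single genes are not reported here. The number of libraries and their total of 14203041 to 22688664 counts set the precision.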

Additional observations from a re-analysis of the deposited data

Results flagged for a closer look

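In 21 sets of 6 libraries (7 genes in 3 groups), 1 library stood far from the rest of its set. H2-DMb1 in Control 5 was at 1.88 CPM, where the nearest other control was at 2.59 CPM and the gap made up 0.766 of the group's range. Chance marks about 1 in 20 such sets.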

How the results depend on the processing

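The number of members called moved most with which libraries entered. With isoproterenol it was 1, and 0 without a filter on low counts, without the 4 libraries of high Myl7 and with the macrophage covariate, 2 in a fit of the 12 libraries compared, and 0 to 4 over the fits that left out 1 library. With minocycline added it was 2, and 0 in the fit of 12 libraries and without the libraries of high Myl7, 4 with DESeq2 without independent filtering and with the macrophage covariate, and 0 to 4 without 1 library. DESeq2 with its default filtering gave no adjusted p for any member there. For both drugs against Control it was 1, and 3 in the fit of 12 libraries, 2 with DESeq2 without independent filtering, limma-voom and the macrophage covariate (H2-Eb1 and Cd74 in that fit), and 1 to 2 without 1 library. The number of correlated pairs was 10, and 15 when group means were not subtracted, 4 without Isoproterenol 1 and 2, and 10 to 13 without 1 library. The cause was not tested in any of these. All genes called were 1669, 7 and 2557, and ranged over the alternatives other than single libraries from 483 to 2190, 1 to 36 and 431 to 2939, and over the fits without 1 library from 1079 to 1877, 1 to 13 and 1789 to 2930. Directions turned only for log2 fold changes that were not called. Cd74 with isoproterenol was -0.0121 with the macrophage covariate. Ciita with isoproterenol was 0.0374 with limma-voom, 0.31 without the libraries of high Myl7 and -0.15 to 0.20 without 1 library. For both drugs against Control, Ciita was 0.20 without the libraries of high Myl7 and -0.39 to 0.0073 without 1 library, H2-DMa was -0.12 to 0.0344 and H2-DMb1 -0.15 to 0.0470. The depth limits Ciita and H2-DM most, at 7 to 24 and 32 to 82 counts a library. No paired analysis was possible because the groups share no library numbers in the labels.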
